A study of Mus musculus with 12 samples.

Results

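The genes described are Bhlhe40, Bhlhe41, Per1, Per2, Per3, Cry1, Cry2, Dbp, Nr1d1 and Nr1d2, which are 10 of the 23422 genes in the deposited table of transcript levels. They were picked by symbol, as clock repressors and clock-controlled genes together with the pair Bhlhe40 and Bhlhe41. The level of a gene is the sum over its transcripts of FPKM, the fragment count scaled to transcript length and library size. The 11378 genes whose mean reached 1 FPKM were tested, and these took in 9 of the 10 genes and left out Per2.

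The libraries were made from primary lung endothelial cells of mouse, 3 in each of 4 groups and 12 in all. Wild type C57BL/6J cells were kept in normoxia, at 21% oxygen, or in hypoxia, at 1% oxygen. Cells of MLK2-/-MLK3-/- mice, which lack the mixed-lineage kinases encoded by Map3k10 and Map3k11, were kept in the same pair of conditions. The exposure was 90 min in every group, in a medium with serum, endothelial mitogen and heparin that all groups shared. Nothing in the labels says that replicate libraries stem from different cultures or mice, so the p-values measure the spread between these libraries, which may be technical. The sources used here give neither an hour of harvest nor a step to synchronise the cells.

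In the mammalian clock, CLOCK and BMAL1 (the product of Arntl) bind E-boxes in DNA and switch on the Per, Cry, Nr1d and Dbp genes. PER and CRY proteins then hold back CLOCK and BMAL1, the nuclear receptors encoded by Nr1d1 and Nr1d2 repress Arntl, and DBP activates genes through D-boxes. BHLHE40 and BHLHE41, also called DEC1 and DEC2, compete for E-boxes as repressors, and Bhlhe40 is a known target of the hypoxia-inducible factors (HIF), which act through a short DNA core shared in part with the E-box.

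The knocked-out genes were lower in the libraries labelled double knockout. Map3k10 averaged 0.148 FPKM at 21% oxygen and 1.17 FPKM in hypoxia there, against 18.8 and 17.5 FPKM in wild type, and Map3k11 averaged 11.2 and 11.6 FPKM against 34.7 and 32.9 FPKM. All 8 endothelial markers listed were above 1 FPKM, with summed levels of 2864 to 3116 FPKM per library, while Scgb1a1 of airway epithelium was at 0 in all libraries and the 4 epithelial markers summed to at most 0.149 FPKM. The deposited values give no depth; the steps between low values gave an estimate of 21200000 to 26000000 fragments per library, with 88.5 to 90.6% of the low values used lying within 0.1 of a whole fragment. On that estimate a library held 2091 to 2965 fragments of Nr1d2 and 546 to 756 of Cry1, but 24 to 52 of Per2. For Dbp it was 55 to 107 from the transcript ENSMUST00000080885, which carried 90.5% of the Dbp FPKM. The lengths of the other Dbp transcripts were not available, so their fragments are not included.

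The 10 genes differed widely in level. In wild type normoxia Nr1d2 stood first at 19.9 ± 0.436 FPKM (SD, n = 3) and Cry1 second at 8.54 ± 0.359 FPKM, and the libraries of these genes overlapped with those of no neighbour in the order. Dbp (2.72 ± 0.412 FPKM) and Bhlhe40 (2.37 ± 0.0604 FPKM) followed and overlapped each other, and so did Nr1d1 (1.76 ± 0.225 FPKM) and Per3 (1.62 ± 0.105 FPKM). Cry2 (1.34 ± 0.128 FPKM), Per1 (1.22 ± 0.476 FPKM) and Bhlhe41 (0.933 ± 0.126 FPKM) were lower and not separated between neighbours, and Per2 was last at 0.292 ± 0.0960 FPKM. Among the tested genes Nr1d2 lay at percentile 66.8 of mean level, Cry1 at 44.2 and Bhlhe40 at 33.4, and the other 6 lay between 1.57 and 13.8. In hypoxia Bhlhe40 moved up to second place in wild type, where it overlapped Cry1, and to position 3 in the double knockout.

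**Figure D1:**
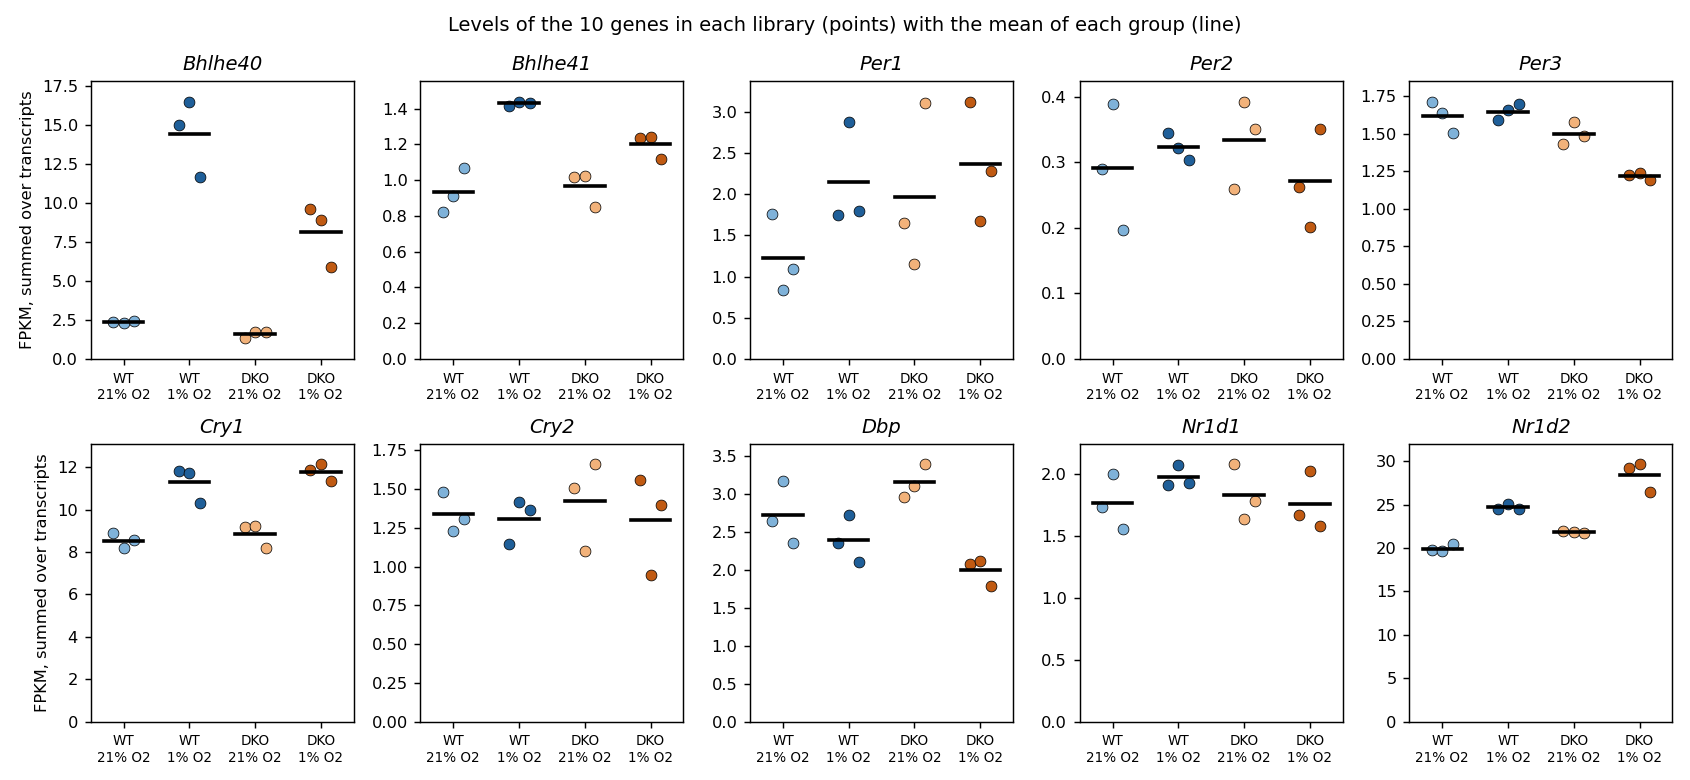
Level of each gene in FPKM, summed over transcripts, in each of the 12 libraries (points) with the mean of each group (line); WT is wild type and DKO the double knockout, and each panel has its own vertical axis from 0. The hypoxic libraries of Bhlhe40, Cry1 and Nr1d2 lie above the normoxic ones in both genotypes, the points of Per1 are widely scattered, and Per3 is lowest in the hypoxic double knockout.

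Promoter sequence is shown for 5 genes whose levels changed in the tests below, and for Per1, to let the clock and hypoxia motifs be seen in place. The RefSeq promoter table (GRCm38.p6) held 9 windows of 250 bases before a start for 8 of the genes; Bhlhe40 and Per2 were not in it. Each sequence is printed 5′ to 3′ up to the first base that lies in an exon of the gene in GENCODE M21 (GRCm38). Capitals mark 4 motifs, searched on both strands. The E-box is CACGTG and reads the same on either strand. The A form of the HIF core is ACGTG; its G form, GCGTG, was searched too but is left in lower case. The cAMP response element was searched as TGACGTCA. The D-box was searched as TTANGTAA. CCAAT and GGGCGG were also searched and left in lower case, and 33.8% and 32.7% of all windows held them. The windows are Bhlhe41 at chr6:145865559-145865670 (minus strand), Cry1 at chr10:85185065-85185304 (minus), Nr1d2 at chr14:18239128-18239356 (minus), Dbp at chr7:45704997-45705087 (plus), Per3 at chr4:151044666-151044915 (minus) and Per1 at chr11:69098699-69098947 (plus).
Bhlhe41: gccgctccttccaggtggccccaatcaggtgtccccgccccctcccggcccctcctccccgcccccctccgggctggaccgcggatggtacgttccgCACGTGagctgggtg
Cry1: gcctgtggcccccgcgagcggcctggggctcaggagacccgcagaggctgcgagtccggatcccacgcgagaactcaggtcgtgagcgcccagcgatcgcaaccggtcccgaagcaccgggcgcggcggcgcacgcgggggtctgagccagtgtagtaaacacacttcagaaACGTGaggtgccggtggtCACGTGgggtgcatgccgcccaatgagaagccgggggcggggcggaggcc
Nr1d2: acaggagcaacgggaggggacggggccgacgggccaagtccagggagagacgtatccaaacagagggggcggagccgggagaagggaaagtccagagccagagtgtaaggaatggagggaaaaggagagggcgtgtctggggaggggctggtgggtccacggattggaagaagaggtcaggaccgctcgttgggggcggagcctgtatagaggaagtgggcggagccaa
Dbp: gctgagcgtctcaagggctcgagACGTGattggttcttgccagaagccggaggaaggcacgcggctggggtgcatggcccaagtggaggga
Per3: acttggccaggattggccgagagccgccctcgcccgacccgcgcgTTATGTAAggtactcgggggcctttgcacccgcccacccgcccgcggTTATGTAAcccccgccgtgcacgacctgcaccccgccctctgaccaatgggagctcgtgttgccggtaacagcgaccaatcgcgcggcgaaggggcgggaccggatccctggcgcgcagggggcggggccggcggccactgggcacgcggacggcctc
Per1: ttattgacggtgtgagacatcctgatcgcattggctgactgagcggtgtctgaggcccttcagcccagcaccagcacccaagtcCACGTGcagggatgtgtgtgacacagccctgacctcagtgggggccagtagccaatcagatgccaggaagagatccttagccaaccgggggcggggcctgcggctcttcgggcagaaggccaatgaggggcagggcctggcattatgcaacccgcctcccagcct

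An E-box was present in the windows of Bhlhe41, Cry1 and Per1, at 148, 55 and 161 bases before the RefSeq start, and in 6.02% of the 32851 promoter windows of the table. Every E-box also contains the ACGTG core, which was found in 16.6% of all windows. Cry1 held a further ACGTG at 74 bases before the start, and Dbp, Cry2 and Nr1d1 held one at 223, 161 and 23 bases. The GCGTG core was found in 28.2% of all windows, at 183 and 115 bases in Cry1, at 116 in Nr1d2, at 189 and 70 in Dbp, at 115 and 62 in Bhlhe41 and at 11 in Per3. Those at 115 and 62 bases in Bhlhe41 and at 70 in Dbp are not in the printed sequences. They lie in the last 138 bases of the Bhlhe41 window and 159 of the Dbp window, left off as exonic. It was also in the windows of Cry2 and Nr1d1, at 233 and 191 bases, and not in the printed window of Per1. Per3 held a pair of D-boxes, at 198 and 151 bases, against 2.06% of all windows with at least one. The cAMP response element, present in 1.55% of all windows, was in none of the 9 windows searched, and the window of Nr1d2 held none of the 4 motifs marked by capitals. These are matches of letters and not measured binding sites.

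Hypoxia changed a small set of these genes in both genotypes. Bhlhe40 rose several-fold, Cry1 and Nr1d2 rose by smaller amounts, Bhlhe41 rose in wild type, and Dbp fell in the double knockout. In wild type cells 4 of the 9 tested genes were higher in hypoxia and none was lower by limma at an adjusted p under 0.05, against 20.8% of all tested genes called (10.5% higher and 10.4% lower). In double knockout cells 3 were higher and 1 was lower, against 39.3% of all tested genes called (19.6% in each direction). The median log2 fold change of the 9 genes was 0.30 in wild type and 0.16 in the double knockout, and that of all tested genes was 0.0023 and 0.0088. The hypoxia comparisons of the genotypes contrast different libraries. Their tests share 1 estimate of the spread of each gene, taken from all 12 libraries, so their p-values are not independent. The summed lymphatic endothelial markers also differed by oxygen in wild type, at 482 to 494 FPKM in normoxia and 519 to 593 FPKM in hypoxia, and overlapped in the double knockout. The sum of the endothelial markers in wild type, at 2864 to 3050 and 3090 to 3116 FPKM, was likewise higher in hypoxia without overlap. So was that of the smooth muscle and pericyte markers in the double knockout, at 25.6 to 26.8 and 27.4 to 32.9 FPKM. Single endothelial markers did not all follow in wild type. Kdr averaged 77.6 FPKM in normoxia and 67.1 FPKM in hypoxia, and Cldn5 317.2 and 293.5 FPKM. The other endothelial markers were higher on average, with Egfl7, the highest, at 1370 and 1492 FPKM. The part of these markers in the response was not tested.

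Bhlhe40 (ENSMUSG00000030103, chr6:108660629-108666925, plus strand) encodes a basic helix-loop-helix repressor of E-box genes. Its levels in wild type normoxia were 2.39, 2.30 and 2.41 FPKM, and in wild type hypoxia 15.0, 16.5 and 11.7 FPKM. The double knockout libraries had 1.37, 1.76 and 1.73 FPKM at 21% oxygen and 9.61, 8.92 and 5.90 FPKM at 1% oxygen. All hypoxic libraries were above all normoxic ones, and the third library was the lowest of each hypoxic group. The mean FPKM was 6.08 times as high in hypoxia in wild type and 5.03 times as high in the double knockout. On the log2(FPKM + 1) scale the increase was 2.18 ± 0.15 (SE) in wild type (limma adjusted p = 2.51e-06) and 1.78 ± 0.15 in the double knockout (limma adjusted p = 6.28e-06), the 8th largest increase of 11378 genes in each. The transcript ENSMUST00000032194 carried 95.1% of its FPKM.

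Bhlhe41 (ENSMUSG00000030256, chr6:145858243-145865558, minus strand) encodes the closest relative of BHLHE40. It had 0.819, 0.911 and 1.07 FPKM in wild type normoxia and 1.41, 1.44 and 1.43 FPKM at 1% oxygen. In the double knockout it had 1.02, 1.03 and 0.852 FPKM at 21% oxygen and 1.24, 1.24 and 1.12 FPKM at 1% oxygen. The hypoxic libraries lay above the normoxic ones in both genotypes without overlap. The log2 increase was 0.33 ± 0.08 (SE) in wild type, which passed (limma adjusted p = 0.0113), and the difference in the double knockout was 0.16 ± 0.08, which did not (limma adjusted p = 0.116). Bhlhe41 reached the mean of 1 FPKM needed for a test only through its hypoxic groups, since both normoxic means were below it. In the fit without that filter the limma adjusted p was 0.0118 in wild type and 0.113 in the double knockout. The log2 responses of the genotypes differed by -0.17, with a 95% interval of -0.41 to 0.07 (limma adjusted p = 0.495). An antisense gene model, Gm43909, covers 19.0% of the exonic bases of Bhlhe41, and strand was not stated for the counting.

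The Per genes encode the PERIOD proteins, of which PER1 and PER2 are the best known partners of the CRY repressors. Per1 (ENSMUSG00000020893, chr11:69095217-69109960, plus strand) had 1.75, 0.832 and 1.09 FPKM in wild type normoxia and 1.75, 2.88 and 1.79 FPKM at 1% oxygen. In the double knockout it had 1.65, 1.15 and 3.11 FPKM at 21% oxygen and 3.12, 1.68 and 2.28 FPKM at 1% oxygen. The groups overlapped in the double knockout, and in wild type the highest normoxic library was level with the lowest hypoxic one. The log2 difference was 0.50 ± 0.24 (SE) in wild type (limma adjusted p = 0.169) and 0.21 ± 0.24 in the double knockout (limma adjusted p = 0.530), and neither passed.

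One short transcript of Per1 varied widely between libraries. ENSMUST00000132462, of 496 bases, carried 41.7% of the Per1 FPKM and ranged from 0.00426 to 2.15 FPKM between libraries. A short transcript reaches a given FPKM with fewer fragments than a long one. Its share of the Per1 fragments is therefore smaller than its share of FPKM, and Per1 as a whole had an estimated 80 to 160 fragments per library. The main transcript, ENSMUST00000021271 of 4671 bases, carried 43.8% and had 0.699, 0.778 and 0.507 FPKM in wild type normoxia against 1.11, 1.19 and 0.851 FPKM at 1% oxygen. In the double knockout it had 0.541, 0.908 and 0.845 FPKM at 21% oxygen and 0.992, 0.826 and 0.859 FPKM at 1% oxygen. When transcripts under 1000 bases were left out of every gene, an alternative chosen after the data were seen, Per1 was 0.988, 0.828 and 0.811 FPKM in wild type normoxia and 1.64, 1.67 and 1.06 FPKM at 1% oxygen. The log2 difference was then 0.38 ± 0.10 (SE) in wild type, which passed (limma adjusted p = 0.0150), and 0.24 ± 0.10 in the double knockout, which did not (limma adjusted p = 0.0656).

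**Figure D2:**
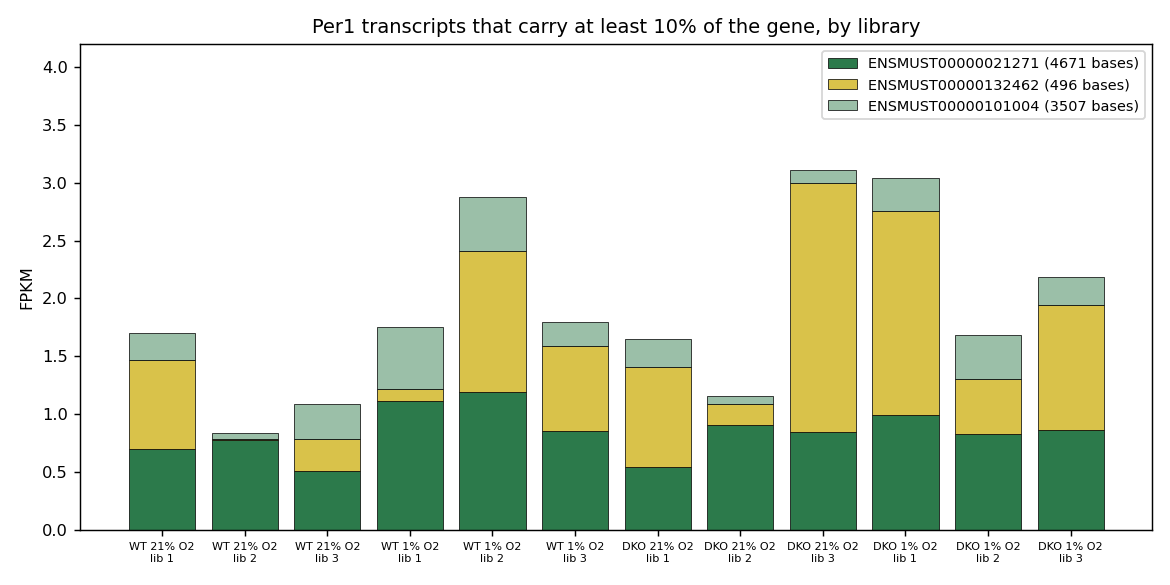
FPKM of the 3 Per1 transcripts that carry at least 10% of the gene, stacked for each of the 12 libraries in normoxia (21% O2) and hypoxia (1% O2). The 496-base transcript runs from near 0 in the second wild type normoxic library to 2.15 FPKM in the third double knockout normoxic library, while the 4671-base transcript stays between 0.507 and 1.19 FPKM.

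Per2 (ENSMUSG00000055866, chr1:91415982-91459324, minus strand) was too low to be tested. It had 0.290, 0.388 and 0.196 FPKM in wild type normoxia and 0.344, 0.322 and 0.304 FPKM in hypoxia, and 0.259 to 0.392 and 0.202 to 0.350 FPKM in the double knockout. All groups overlapped. In a fit without the filter on low values the log2 difference was 0.037 in wild type (limma adjusted p = 0.810) and -0.070 in the double knockout (limma adjusted p = 0.515).

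Per3 (ENSMUSG00000028957, chr4:151003652-151044665, minus strand) had 1.71, 1.64 and 1.50 FPKM in wild type normoxia and 1.59, 1.66 and 1.70 FPKM at 1% oxygen. The groups overlapped, and the log2 difference was 0.016 ± 0.067 (SE), with a 95% interval of -0.13 to 0.16 (limma adjusted p = 0.891). In the double knockout Per3 had 1.43, 1.57 and 1.48 FPKM at 21% oxygen and 1.22, 1.24 and 1.19 FPKM at 1% oxygen. There the hypoxic libraries lay below the normoxic ones without overlap, but the log2 difference of -0.17 ± 0.07 did not pass (limma adjusted p = 0.0636).

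Cry1 (ENSMUSG00000020038, chr10:85131700-85185064, minus strand) encodes a cryptochrome, a strong repressor of CLOCK and BMAL1. Its levels were 8.88, 8.17 and 8.56 FPKM in wild type normoxia and 11.8, 11.7 and 10.3 FPKM at 1% oxygen. The double knockout had 9.16, 9.22 and 8.20 FPKM at 21% oxygen and 11.9, 12.1 and 11.3 FPKM at 1% oxygen. No hypoxic library overlapped a normoxic one. Cry1 rose by a log2 fold change of 0.36 ± 0.06 (SE) in wild type (limma adjusted p = 0.00226) and 0.38 ± 0.06 in the double knockout (limma adjusted p = 0.000608). The difference of these responses was 0.012, with a 95% interval of -0.18 to 0.21.

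Cry2 (ENSMUSG00000068742, chr2:92403646-92434043, minus strand), which encodes the other cryptochrome, ranged from 0.946 to 1.66 FPKM over the 12 libraries with overlap between all groups. Its log2 difference in hypoxia was -0.021 in wild type, with a 95% interval of -0.28 to 0.24 (limma adjusted p = 0.923). In the double knockout it was -0.077, with an interval of -0.34 to 0.18 (limma adjusted p = 0.644).

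Nr1d2 (ENSMUSG00000021775, chr14:18204054-18239127, minus strand) encodes the nuclear receptor REV-ERB beta, a repressor of Arntl. Wild type libraries had 19.8, 19.6 and 20.4 FPKM at 21% oxygen and 24.5, 25.1 and 24.5 FPKM at 1% oxygen. Double knockout libraries had 22.0, 21.8 and 21.7 FPKM at 21% oxygen and 29.3, 29.6 and 26.5 FPKM at 1% oxygen. Hypoxic libraries stood above normoxic ones in both genotypes. The increase was 1.24 times in wild type (log2 0.30 ± 0.04 SE, limma adjusted p = 0.000800) and 1.30 times in the double knockout (log2 0.37 ± 0.04, limma adjusted p = 6.19e-05).

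Nr1d1 (ENSMUSG00000020889, chr11:98767932-98775333, minus strand), which encodes REV-ERB alpha, was at 1.55 to 2.08 FPKM in all libraries, and its groups overlapped. The log2 difference in hypoxia was 0.11 in wild type, with a 95% interval of -0.09 to 0.31, and -0.038 in the double knockout, with an interval of -0.24 to 0.16 (limma adjusted p = 0.436 and 0.772). Thra, on the opposite strand, shares 8.55% of the exonic bases of Nr1d1 and was at 20.9 to 26.1 FPKM, so reads of the shared bases cannot be told apart without strand.

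Dbp (ENSMUSG00000059824, chr7:45705088-45710203, plus strand) encodes a transcription factor of the PAR bZIP family and is a classical output of the clock. Wild type libraries had 2.65, 3.17 and 2.35 FPKM at 21% oxygen and 2.36, 2.73 and 2.10 FPKM in hypoxia, and they overlapped. Double knockout libraries had 2.97, 3.10 and 3.39 FPKM at 21% oxygen and 2.08, 2.12 and 1.78 FPKM in hypoxia, with no overlap. Dbp fell by 0.47 ± 0.10 (SE) on the log2 scale in the double knockout (limma adjusted p = 0.00238), to 0.633 of its normoxic mean FPKM. In wild type the log2 difference was -0.13 ± 0.10 (limma adjusted p = 0.374). Sphk2 on the opposite strand covers 18.0% of the exonic bases of Dbp; its own log2 difference was -0.094 in wild type and -0.13 in the double knockout (limma adjusted p = 0.327 and 0.129). Dbp lies 18.0 Mb from Map3k10, one of the knocked-out genes, on the same chromosome.

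**Figure D3:**
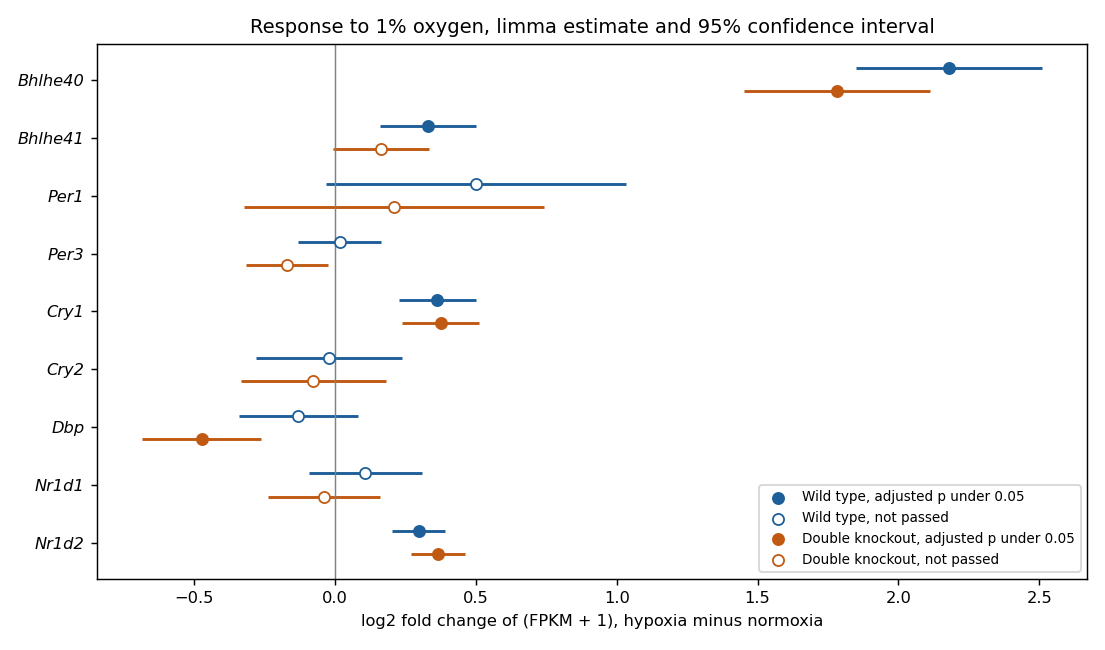
Change in hypoxia of the 9 tested genes in each genotype, as the limma log2 fold change of (FPKM + 1) with its 95% confidence interval; filled points passed an adjusted p under 0.05. Bhlhe40 stands apart near 2, Cry1 and Nr1d2 are filled in both genotypes, Bhlhe41 in wild type and Dbp in the double knockout.

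Whether the response to hypoxia itself differed between the genotypes was tested as the double knockout response minus the wild type response. By limma 0 of the 9 genes passed, against 0.193% of all tested genes called (0.0703% higher and 0.123% lower). An unadjusted p under 0.05 was reached by 1 gene, and the share of all tested genes at that limit was not counted. That gene was Dbp, whose response was lower by 0.34 on the log2 scale in the double knockout (95% interval -0.64 to -0.04, limma unadjusted p = 0.0283, adjusted p = 0.250). For Bhlhe40 the difference was -0.40, with an interval of -0.87 to 0.07 (limma adjusted p = 0.395). With single libraries left out it ran from -0.53 to -0.21, the latter without library 3 of double knockout hypoxia. The fall of Dbp in the double knockout and its smaller difference in wild type are therefore not shown to differ after adjustment, and the same holds for Bhlhe41.

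Averaged over both genotypes, 5 of the 9 genes changed in hypoxia by limma, 4 higher and 1 lower, against 45.6% of all tested genes called (22.7% higher and 22.9% lower). Bhlhe40 rose by 1.98 ± 0.11 (SE) on the log2 scale, Cry1 by 0.37 ± 0.04, Nr1d2 by 0.33 ± 0.03 and Bhlhe41 by 0.25 ± 0.06. Dbp fell by 0.30 ± 0.07. The limma adjusted p of these 5 ran from 9.64e-08 for Bhlhe40 to 0.00364 for Dbp. Per1 had an average log2 difference of 0.36 ± 0.17, which did not pass (limma adjusted p = 0.113) but did so without library 3 of double knockout normoxia (log2 0.49, limma adjusted p = 0.0222).

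The genotypes were compared within each oxygen level to ask whether loss of both kinases altered the clock genes. In normoxia 0 of the 9 genes passed by limma, and 8.16% of all tested genes were called (3.84% higher and 4.32% lower). An unadjusted p under 0.05 was reached by 2 genes, and the share of all tested genes at that limit was not counted. The 2 were Bhlhe40, with all double knockout libraries (1.37 to 1.76 FPKM) below all wild type ones (2.30 to 2.41 FPKM) and a log2 difference of -0.36 (limma unadjusted p = 0.0337, adjusted p = 0.186), and Nr1d2, with a log2 difference of 0.13 (limma unadjusted p = 0.0137, adjusted p = 0.108). The genotype comparisons use the same libraries as the hypoxia comparisons and are not independent of them.

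In hypoxia the double knockout had less Bhlhe40 and Per3 and more Nr1d2. These were 3 of the 9 genes, 1 higher and 2 lower by limma, against 16.1% of all tested genes called (7.68% higher and 8.42% lower). Bhlhe40 averaged 8.14 ± 1.97 FPKM (SD, n = 3) in the hypoxic double knockout and 14.4 ± 2.46 FPKM in hypoxic wild type, 0.566 of that level. Its log2 difference was -0.76 ± 0.15 (SE), the 62nd lowest of 11378 genes (limma adjusted p = 0.00563). Per3 averaged 1.22 ± 0.0228 FPKM against 1.65 ± 0.0546 FPKM, a log2 difference of -0.25 ± 0.07 (limma adjusted p = 0.0236). Nr1d2 averaged 28.5 ± 1.73 FPKM against 24.7 ± 0.330 FPKM, a log2 difference of 0.19 ± 0.04 (limma adjusted p = 0.0107). In each of the 3 genes the libraries of the genotypes did not overlap. The share of all tested genes without overlap was not counted, and Bhlhe41, which did not pass, had no overlap either.

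The Per3 difference did not keep its call when single libraries were left out. Without library 2 or 3 of wild type hypoxia, or without any 1 of the 3 double knockout hypoxic libraries, its log2 difference was -0.26 to -0.24 with a limma adjusted p of 0.0527 to 0.0685. Bhlhe41 had 1.41 to 1.44 FPKM in hypoxic wild type and 1.12 to 1.24 FPKM in the hypoxic double knockout, which do not overlap, but its log2 difference of -0.14 did not pass (limma adjusted p = 0.247). Dbp, with a log2 difference of -0.18, did not pass either (limma adjusted p = 0.245). For Per1, Cry1, Cry2 and Nr1d1 the limma intervals of the genotype difference spanned 0 at both oxygen levels.

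Summed markers of other cells moved with genotype, though single genes of a list did not all follow the sum. The 5 macrophage and leukocyte markers summed to 20.1 to 28.7 FPKM in the wild type libraries and 59.6 to 72.7 FPKM in the double knockout, with 2 of 5 above 1 FPKM on average. Most of this sum was Lyz2, with means of 21.4 and 24.5 FPKM in wild type normoxia and hypoxia and 62.1 and 59.6 FPKM in the double knockout. Cd68 had means of 3.0 and 2.8 FPKM, and 2.7 and 3.4 FPKM. Of the low markers, Ptprc and Adgre1 were higher on average in the double knockout at both oxygen levels, and Csf1r was lower in hypoxia. The 5 fibroblast markers summed to 1.57 to 2.33 FPKM in wild type and 3.72 to 4.23 FPKM in the double knockout, with 1 of 5 above 1 FPKM. The 4 lymphatic endothelial markers summed to 482 to 593 FPKM in wild type and 372 to 445 FPKM in the double knockout, without overlap. Most of this sum was Lyve1, with means of 260.9 against 344.6 FPKM in normoxia and 264.9 against 390.3 FPKM in hypoxia. Prox1 and Flt4 were also lower on average in the double knockout at each oxygen level. Pdpn was not, at 60.8 against 51.2 FPKM in normoxia and 57.3 against 57.1 FPKM in hypoxia. The 6 smooth muscle and pericyte markers, with 2 of 6 above 1 FPKM, summed to less in the double knockout at each oxygen level. The sums were 25.6 to 26.8 against 27.7 to 36.1 FPKM in normoxia. In hypoxia they were 27.4 to 32.9 against 34.9 to 45.6 FPKM. Most of the sum was Tagln, with means of 21.1 against 27.7 FPKM in normoxia and 24.5 against 36.7 FPKM in hypoxia. Acta2 went the other way, at 4.8 against 2.5 FPKM in normoxia and 5.8 against 3.4 FPKM in hypoxia. In such bulk libraries fewer cells of a type and less RNA per cell cannot be told apart, and the part of these cells in the genotype differences of Bhlhe40, Per3 and Nr1d2 was not tested.

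**Figure D4:**
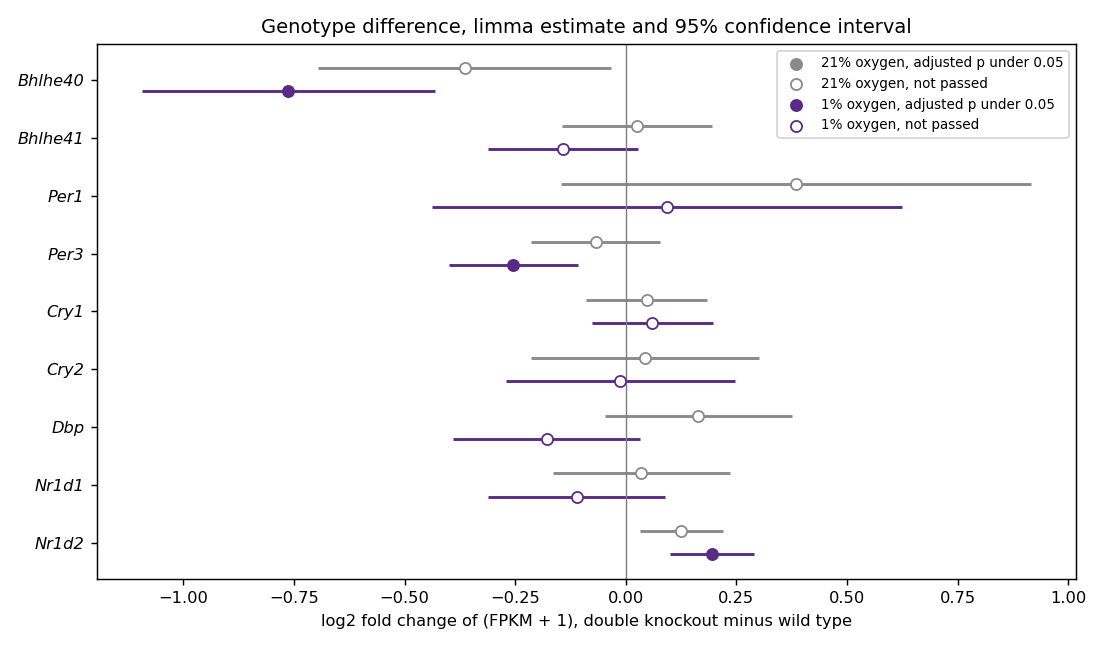
Double knockout minus wild type at each oxygen level for the 9 tested genes, as the limma log2 fold change of (FPKM + 1) with its 95% confidence interval; filled points passed an adjusted p under 0.05. At 21% oxygen no point is filled, and at 1% oxygen Bhlhe40 and Per3 are filled below 0 and Nr1d2 above 0.

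Averaged over both oxygen levels the same 3 genes passed by limma, 1 higher and 2 lower, with 19% of all tested genes called (8.89% higher and 10.2% lower). Bhlhe40 was lower in the double knockout by a log2 difference of -0.56 (limma adjusted p = 0.00329), Per3 by -0.16 (limma adjusted p = 0.0335) and Nr1d2 was higher by 0.16 (limma adjusted p = 0.00349). The Per3 call was lost when any 1 of these was left out: library 1 or 2 of wild type normoxia, 2 or 3 of wild type hypoxia, 1 or 3 of double knockout normoxia, and 1, 2 or 3 of double knockout hypoxia (limma adjusted p = 0.0556 to 0.0736).

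Other genes of the clock were read from lists of positive factors, of further repressors, and of modifying enzymes with other clock-linked proteins. Among the activators and their partners, Rora, Clock and Arntl rose in the average hypoxia response by limma, where 22.7% of all tested genes were higher. Rora, a nuclear receptor that activates Arntl against the REV-ERB proteins, went from 3.10 ± 0.226 to 7.96 ± 0.531 FPKM (SD, n = 3) in wild type and from 2.68 ± 0.174 to 6.75 ± 0.290 FPKM in the double knockout. Its average log2 increase was 1.10 ± 0.05 (SE, limma adjusted p = 1.36e-08). Clock rose by 0.16 ± 0.03 and Arntl by 0.17 ± 0.04 (limma adjusted p = 0.00162 and 0.00786). In wild type alone neither passed, with log2 differences of 0.13 and 0.11 (limma adjusted p = 0.0670 and 0.257). Both passed in the double knockout, at 0.19 and 0.23 (limma adjusted p = 0.00541 and 0.0107). Arntl2, Npas2 and Rorb were too low to be tested.

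Of 4 further output factors and repressors 3 were tested, and 2 rose in the average hypoxia response by limma, against 22.7% of all tested genes higher in that comparison. Their median log2 fold change was 0.20, and that of all tested genes was 0.0052. Ciart, which encodes the repressor CHRONO, went from 1.52 ± 0.679 to 5.99 ± 0.551 FPKM (SD, n = 3) in wild type and from 1.78 ± 0.304 to 4.40 ± 0.277 FPKM in the double knockout. Its log2 increase was 1.50 ± 0.16 (SE) in wild type and 0.96 ± 0.16 in the double knockout (limma adjusted p = 9.11e-05 and 0.000632). Tef, a PAR bZIP factor like Dbp, rose by 0.20 ± 0.03 on average (limma adjusted p = 0.000412), the opposite direction to Dbp. Nfil3, a repressor at the D-box, had a log2 difference of -0.00051 (limma adjusted p = 0.993), and Hlf was too low to be tested.

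Among 12 genes of kinases, ubiquitin ligases and other clock-linked proteins, all tested, 4 rose and 1 fell in the average hypoxia response by limma. These are 5 of 12, where 45.6% of all tested genes were called, and their median log2 fold change was 0.043. Fbxw11, part of a ubiquitin ligase for PER proteins, rose by 0.25 ± 0.03 (SE), and the casein kinases Csnk1e and Csnk1d rose by 0.19 ± 0.03 and 0.18 ± 0.03 (limma adjusted p = 1.91e-05, 0.000156 and 0.000487). Timeless fell by 0.22 ± 0.04 (limma adjusted p = 0.00188). With the highest transcript of each gene in place of the sum, the calls of Csnk1d and Timeless were lost (limma adjusted p = 0.0592 and 0.270). By limma 0 genes of the list of output factors and repressors and 0 of these 12 genes passed in the difference of the responses. There 0.193% of all tested genes were called. An unadjusted p under 0.05 was reached by 1 and 2 genes of these lists, and the share of all tested genes at that limit was not counted.

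**Figure D5:**
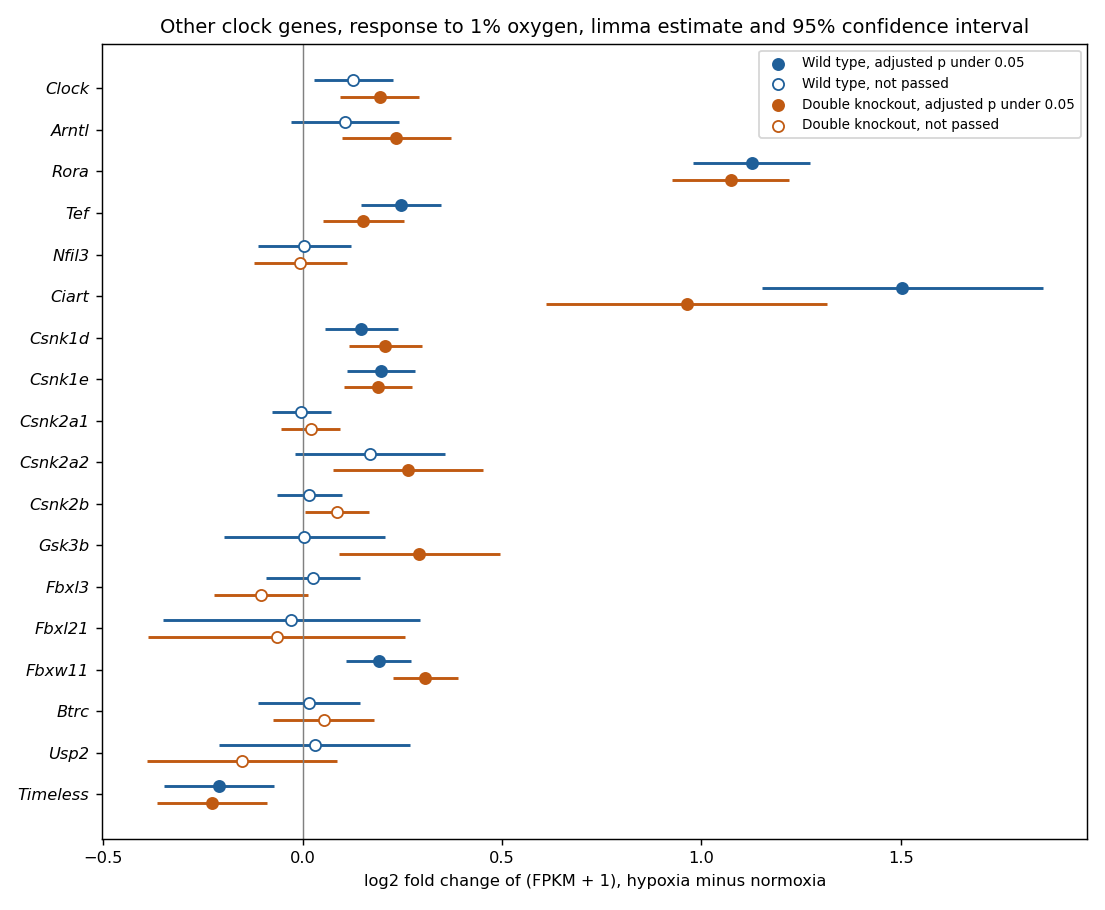
Change in hypoxia of tested genes of the other clock lists in each genotype, as the limma log2 fold change of (FPKM + 1) with its 95% confidence interval; filled points passed an adjusted p under 0.05. Rora and Ciart lie farthest to the right in both genotypes, and Timeless lies left of 0.

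Of 8 listed HIF targets 7 rose in the average hypoxia response by limma, where 22.7% of all tested genes were higher. Their median log2 fold change was 2.36. The list was chosen with earlier results of these data known, so the count is no independent check of the treatment. Bhlhe40, at 1.98, lay between Vegfa, the endothelial growth factor, at 2.79 and Egln3, a HIF prolyl hydroxylase, at 1.93. Ndrg1 had an average log2 difference of -0.029 (limma adjusted p = 0.624), made of 0.18 in wild type (limma adjusted p = 0.0688) and -0.24 in the double knockout (limma adjusted p = 0.0115, and 0.0514 without library 3 of double knockout hypoxia). In the difference of the responses 0 of the 8 passed by limma, where 0.193% of all tested genes were called. An unadjusted p under 0.05 was reached by 4, and the share of all tested genes at that limit was not counted.

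Genes most like Bhlhe40 over the 12 libraries, by Pearson's correlation of log2(FPKM + 1) among 10618 genes, were Apold1 (0.992), Hk2 (0.992), Net1 (0.987) and Maff (0.986). Apold1, an endothelial early response gene, had means of 86.8 and 226 FPKM in wild type normoxia and hypoxia and 73.8 and 148 FPKM in the double knockout. Hk2, which encodes hexokinase 2, had 4.49 and 19.2 FPKM, and 3.15 and 10.5 FPKM. The libraries form separate sets by oxygen level, and the coefficients include the step between them. For Dbp the most like genes were Ctif (0.963), Fitm2 (0.933), Hoxd10 (0.923), Rab3a (0.913) and Oxld1 (0.912). Rab3a, which encodes a small GTPase of secretory vesicles, had means of 2.11 and 1.53 FPKM in wild type normoxia and hypoxia and 2.48 and 1.25 FPKM in the double knockout.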

How the data were processed

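The labels' protocols name the RNeasy Plus kit for RNA and the NEBNext Ultra RNA kit for the 12 libraries. TopHat2 is the aligner in the submitters' processing notes. The table that the authors deposited holds FPKM of 52655 transcripts, and its build, annotation, strand setting and FPKM tool were not given in the sources used here. FPKM was summed for each of 23422 gene identifiers. The test used log2(FPKM + 1), a scale that understates the change of low genes, for the 11378 genes reaching a mean of 1 FPKM. All 12 libraries entered a single limma 3.58.1 model under R 4.3.3, with a coefficient for each group, a variance trend and 8 residual degrees of freedom. Within each of 7 comparisons p was adjusted over all tested genes by Benjamini-Hochberg, and the threshold was 0.05. The fit was tested on simulated data. Positions, exon overlaps and transcript lengths came from GENCODE M21 (GRCm38), which matched 95.2% of the transcripts. Depth was estimated from 7999 genes with a single transcript, with 275 bases taken off each length. The members and all gene lists were chosen with earlier results of these data known. Every member is described; from each list, up to 4 called genes with the smallest p were named, and for Bhlhe40 and Dbp the 5 genes of highest correlation; 1 gene of a list and 1 of the correlated genes are not reported here. Replicate numbers were not used to pair the libraries, as same-numbered deviations correlated at only -0.084 to 0.17. Between wild type hypoxia and double knockout normoxia, however, the same-numbered values (0.081, 0.044 and 0.17) were all above the highest other value (0.027). Alternatives were another pseudocount, filter, scaling, weighting, variance model, transcript choice, replicate block and set of libraries.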

Additional observations from a re-analysis of the deposited data

How the results depend on the processing

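Of 1157 values of the members under alternative processing, 1132 kept their direction and side of the threshold, 16 lost their call, 9 gained one and 0 reversed. The lost calls were all of Per3: 6 in the hypoxic genotype comparison and 10 in the average genotype difference. In the fit with the replicate number as a block, the members called in the 7 comparisons, in the order hypoxia in wild type and double knockout, genotype in normoxia and hypoxia, difference of responses, average hypoxia and average genotype, were 4, 4, 0, 3, 0, 5 and 2, against 4, 4, 0, 3, 0, 5 and 3 without the block; Per3 was lost in the last (limma adjusted p = 0.0548). With a filter at a mean of 5 FPKM, which tests fewer genes, 3 members were called in the average hypoxia response in place of 5. Gained calls included Bhlhe41 in hypoxic double knockout under quantile normalization (log2 0.23, adjusted p = 0.0366) and Per3 there with array weights (log2 -0.19, adjusted p = 0.0245). Dbp in the hypoxic genotype comparison gained one with the highest transcript of each gene (log2 -0.27, adjusted p = 0.0382). The average Per1 response gained one without the third double knockout normoxic library (log2 0.49, adjusted p = 0.0222). Over all genes, the count called in wild type hypoxia was 2370, and 1382 to 2351 with 1 library left out; the genotype counts were 929 (583 to 806) in normoxia and 1832 (1175 to 1425) in hypoxia. The count for the difference of responses was 22, and 1 to 153 over all alternatives, with 1 under the block; the cause was not tested. Per2, with 24 to 52 estimated fragments per library, had the fewest of the 10 genes.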

Other observations

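Genes of inputs that are known to reset Per1 were read from lists of cAMP and immediate early genes and of glucocorticoid-induced genes. Of 8 genes in the first list 3 were tested, and 2 rose in the average hypoxia response by limma, where 22.7% of all tested genes were higher (median log2 fold change 0.32, against 0.0052 for all tested genes). Dusp1, a phosphatase of MAP kinases, went from 32.4 ± 2.03 to 44.0 ± 3.96 FPKM (SD, n = 3) in wild type and from 28.0 ± 0.742 to 38.8 ± 0.810 FPKM in the double knockout, an average log2 increase of 0.44 ± 0.04 (SE, limma adjusted p = 9.86e-06). Crem, which encodes a cAMP-responsive modulator, rose by 0.32 ± 0.05 (limma adjusted p = 0.000438). Both were lower in the double knockout over both oxygen levels, Dusp1 by a log2 difference of -0.19 and Crem by -0.23 (limma adjusted p = 0.0105 and 0.0102); the Crem difference was lost with the highest transcript of each gene (adjusted p = 0.264).

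Of 6 glucocorticoid-induced genes 5 were tested, and their average hypoxia responses went both ways by limma, with 2 higher and 1 lower and a median log2 fold change of 0.032. Of all tested genes 22.7% were higher and 22.9% lower. Sgk1, a serum- and glucocorticoid-regulated kinase, rose by 0.59 ± 0.05 (SE, limma adjusted p = 5.30e-06) and Klf9 by 0.15 ± 0.04 (limma adjusted p = 0.00859). Tsc22d3, which encodes the glucocorticoid-induced leucine zipper, had 8.46 ± 0.926 and 8.12 ± 0.358 FPKM (SD, n = 3) in wild type normoxia and hypoxia, and 8.05 ± 0.272 and 5.09 ± 0.485 FPKM in the double knockout. Its log2 difference in hypoxia was -0.049 in wild type (limma adjusted p = 0.703), and it fell by 0.57 in the double knockout (limma adjusted p = 0.000149). The difference of these responses, -0.53, did not pass (limma adjusted p = 0.0780). Fkbp5 was higher in the hypoxic double knockout than in hypoxic wild type by a log2 difference of 0.32 (limma adjusted p = 0.000412).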
